A study of Saccharomyces cerevisiae with 36 samples.

Results

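The expression of 6 genes of vitamin B6 (pyridoxine) metabolism was followed through 12 groups of yeast cultures: SNZ1 (YMR096W), SNO1 (YMR095C), PDX3 (YBR035C), BUD16 (YEL029C), BUD17 (YNR027W) and TPN1 (YGL186C). They were taken by symbol from the probe annotation, 6 of the 5449 genes measured, and each had 1 probe set, so that choosing the brightest probe set left none out. All 6 could be tested, and none had a value under the floor of 32 intensity units. The genes were chosen by what they are known to do, with the log2 changes of IC20 cultures against their own controls in these data in view. Those changes are therefore given as a description, with their standard error and with whether they were called, and without a p-value. A gene was called where limma's moderated test gave a Benjamini-Hochberg adjusted p under 0.05 over all 5449 genes.

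Expression was measured on 36 Affymetrix Yeast Genome 2.0 arrays, with 3 independent cultures in each of the 12 groups. All were of BY4741, a MATa haploid widely used in the laboratory. Exponential cells were kept for 2 h at 30 degrees in minimal medium of pH 6.5, with the IC20 (a mildly inhibitory dose, matched between pesticides) of 1 of 6 pesticides, or in its own control cultures without it. The IC20 was 200 mg/L for alachlor and 220 mg/L for S-metolachlor, 160 mg/L for carbofuran and 80 mg/L for diuron, and 115 mg/L for MCPA-ME (the methyl ester of MCPA) and 20 mg/L for pyrimethanil. All 3 alachlor IC20 titles end in (2), whose meaning is not given. Alachlor, diuron, MCPA-ME and S-metolachlor are herbicides, carbofuran is an insecticide and pyrimethanil a fungicide. Every group shared the strain with its auxotrophies, and the labels do not say whether the minimal medium held pyridoxine or thiamine.

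Pyridoxal phosphate, the active form of vitamin B6, is the cofactor of aminotransferases and of many other enzymes of amino acid metabolism. Yeast can build it anew with a synthase in which Sno1, a glutaminase, hands ammonia to Snz1, which joins it to sugar phosphates. It can also take up pyridoxine through the plasma membrane transporter Tpn1 and salvage it, with kinases such as Bud16 and the related Bud17 adding the phosphate and Pdx3, an oxidase, turning pyridoxine and pyridoxamine phosphates into pyridoxal phosphate. SNZ1 and SNO1 are known targets of Gcn4, the activator of amino acid synthesis genes, and are known to be induced as cells enter stationary phase.

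Array medians lay between 1319.6 and 1511.4 intensity units, and no pair of arrays held identical values. Of the strain's deleted genes, URA3 stayed between 6.09 and 24.41 intensity units, MET17 between 9 and 68.24 and LEU2 between 66.97 and 194.6. Of the MATa genes, the pheromone genes MFA1 and MFA2 lay between 10490 and 21740 and between 19030 and 25390 units. STE2 lay between 8519 and 19930, STE6 between 2579 and 9034, AGA2 between 1608 and 12470 and BAR1 between 982.3 and 9558. Of the MATalpha genes, MF(ALPHA)1 stayed between 9.07 and 62.98, MF(ALPHA)2 and STE3 between 63.87 and 249.6, and SAG1 was higher, at 483 to 1736. The SAG1 range overlapped those of AGA2 and BAR1. MCPA-ME IC20 array 2 stood apart most (root mean square log2 deviation from its group 0.383), followed by carbofuran IC20 array 1 (0.259).

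**Figure D1:**
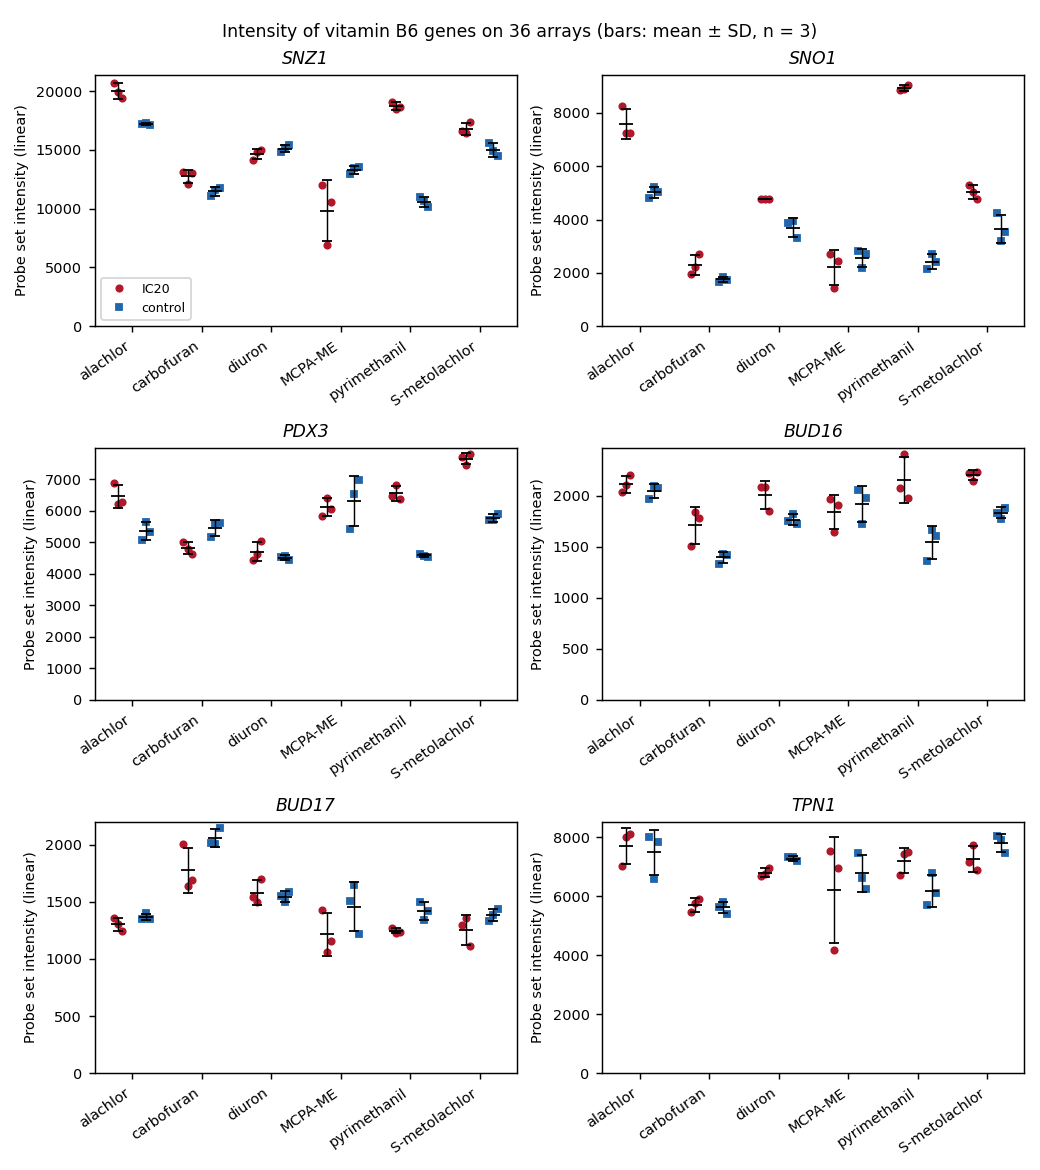
Probe set intensity (linear scale from 0, arbitrary units) of the 6 genes by pesticide, with IC20 arrays as red circles left of their control arrays as blue squares; black bars show mean ± SD (n = 3). The 3 pyrimethanil IC20 arrays lie far above their controls for SNO1 and SNZ1, and the control groups differ between experiments. MCPA-ME IC20 array 2 is the lowest array for SNZ1, SNO1, BUD17 and TPN1.

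Both genes of the synthase rose with pyrimethanil, and so did the salvage genes PDX3 and BUD16. SNO1 had 8861, 8881 and 9052 intensity units in pyrimethanil IC20 cultures, against 2133, 2701 and 2416 in their controls. All treated values thus lay far above the controls, and the means were 8931 ± 105 and 2416 ± 284 (SD, n = 3 each; log2 change 1.89 ± 0.15 SE, 3.71-fold). SNZ1 had 19060, 18450 and 18690 units in pyrimethanil IC20 cultures, against 10970, 10680 and 10150 in their controls. Again the groups were far apart (log2 change 0.82 ± 0.10 SE, 1.77-fold).

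PDX3, the oxidase gene, had 6451, 6805 and 6377 units with pyrimethanil, against 4637, 4558 and 4540 without it (log2 change 0.51 ± 0.07 SE, 1.43-fold). BUD16, a pyridoxal kinase gene, had 2069, 2411 and 1980 units with pyrimethanil, against 1360, 1666 and 1599 without it (0.48 ± 0.09 SE, 1.40-fold). In both genes every treated value lay above every control value. The related kinase gene BUD17 did not pass, with 1270, 1231 and 1236 units with pyrimethanil against 1498, 1339 and 1418 without it (-0.19 ± 0.10 SE). The transporter gene TPN1 did not pass either (0.22 ± 0.13 SE), and its treated and control values overlapped.

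In limma's fit, 4 of the 6 genes were called higher with pyrimethanil and 0 lower (also 0 lower at an unadjusted p under 0.05), where 16.1% of all genes were called in either direction with 6.39% higher and 9.71% lower. The 2 groups were apart for 5 of the 6 genes (4 above their controls, and BUD17 below), and for 41.6% of all genes. The median log2 change of the 6 was 0.5, beside -0.04 over all genes. All 4 calls were kept under each of the 19 alternatives run. With all 18 controls as 1 group the change fell to 0.46 for SNZ1, 0.31 for PDX3 and 0.31 for BUD16, and was 1.58 for SNO1. With arrays fed a fixed amount of RNA from whole cultures, fewer cells expressing a gene and less RNA per cell cannot be told apart.

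**Figure D2:**
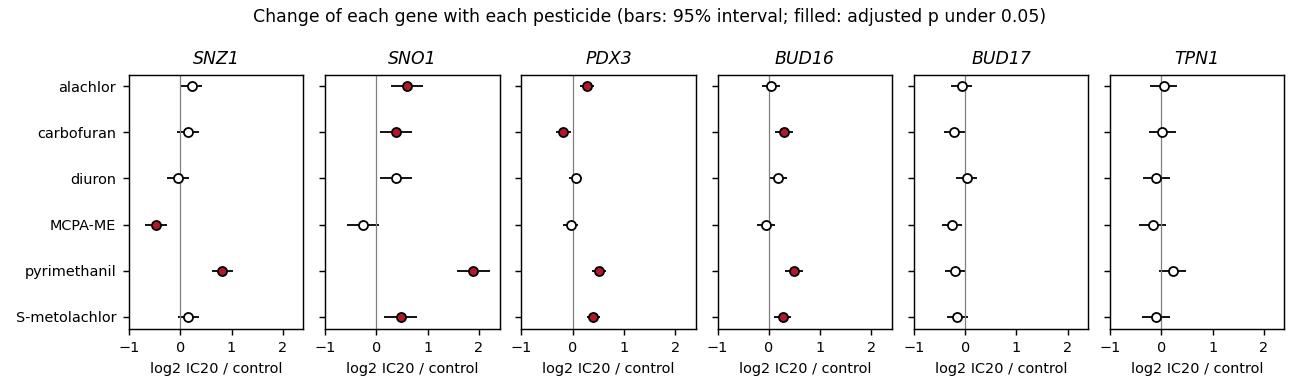
Log2 change (IC20 minus own control) of each gene with each pesticide; points are limma estimates, bars their 95% intervals, filled points those called at an adjusted p under 0.05 over all genes. SNO1 with pyrimethanil (1.89) lies farthest from 0, SNZ1 with MCPA-ME is the lowest point (-0.47), and no interval of TPN1 leaves 0 out.

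Against the mean change with the other 5 pesticides, that with pyrimethanil was higher by 1.58 ± 0.17 (SE, log2) for SNO1, by 0.82 ± 0.11 for SNZ1, by 0.41 ± 0.07 for PDX3 and by 0.34 ± 0.09 for BUD16. These 4 were called in that contrast, which called 8.02% of all genes. BUD17 (-0.05 ± 0.11) and TPN1 (0.28 ± 0.14) were not.

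The chloroacetanilides alachlor and S-metolachlor also raised SNO1 and PDX3. SNO1 had 8243, 7255 and 7245 units with alachlor against 4804, 5202 and 5032 in controls, with no overlap (log2 change 0.59 ± 0.15 SE). With S-metolachlor it had 5287, 5044 and 4755 units against 4229, 3194 and 3540 (0.47 ± 0.15 SE), again with no overlap. PDX3 had 6883, 6218 and 6276 units with alachlor against 5070, 5643 and 5312 (0.27 ± 0.07 SE), and 7694, 7454 and 7784 units with S-metolachlor against 5699, 5712 and 5908 (0.40 ± 0.07 SE). The S-metolachlor arrays held the highest PDX3 values of all groups but not of SNO1 or SNZ1.

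BUD16 was called higher with S-metolachlor, with 2223, 2142 and 2233 units against 1832, 1775 and 1882 (0.27 ± 0.09 SE), and not with alachlor, where the values overlapped (0.05 ± 0.09 SE). SNZ1 did not pass with either compound, although its treated values lay above its controls in both. It had 20730, 19970 and 19390 units with alachlor against 17220, 17260 and 17130 (0.22 ± 0.10 SE), and 16590, 16410 and 17400 units with S-metolachlor against 15620, 14880 and 14510 (0.16 ± 0.10 SE). In each compound's own 6 arrays it was called higher, at the same sizes of change, and with all 18 controls as 1 group alachlor's was called too (0.56, and 1.34 for SNO1). BUD17 and TPN1 changed by -0.15 to 0.05 with these compounds and were not called.

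With alachlor 2 of the 6 genes were called, both higher, beside 5.03% of all genes in either direction and 3.52% higher. With S-metolachlor 3 were called, all higher, beside 24.4% in either direction and 10.1% higher. Values did not overlap for 3 genes with alachlor (30.8% of all genes) and for 4 with S-metolachlor (54.9%). The doses differ in mg/L but both are the labelled IC20. The change with alachlor minus that with S-metolachlor was called for 0 of the 6 genes by limma, and 0 had an unadjusted p under 0.05, with 2.28% of all genes being called. Its 95% interval was -0.32 to 0.57 for SNO1, -0.24 to 0.35 for SNZ1, -0.32 to 0.06 for PDX3 and -0.47 to 0.03 for BUD16, so that differences of these sizes could be present. The SNO1 call with alachlor was lost without control array 1, 2 or 3 or IC20 array 1 (changes of 0.53 to 0.62) and the PDX3 call without control array 1 or IC20 array 1 (0.23 to 0.24), after quantile normalization or median centring, and in the 6 alachlor arrays alone. With S-metolachlor the SNO1 call was lost without control array 2 or 3 or IC20 array 1 or 2 (0.38 to 0.47), and the BUD16 call without control array 1 or 2 or IC20 array 1 or 3 (0.24 to 0.27).

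MCPA-ME was the pesticide with which SNZ1 was called lower. SNZ1 had 12040, 6936 and 10560 units with MCPA-ME, against 12930, 13460 and 13550 in its controls (log2 change -0.47 ± 0.10 SE). The treated values all lay below the controls, array 2 far below the other two. SNO1 overlapped between 2704, 1447 and 2459 units with MCPA-ME and 2827, 2177 and 2693 without it, and did not pass (-0.26 ± 0.15 SE). Array 2 was also the lowest of the 3 treated arrays for SNO1, BUD16 (1647 units), BUD17 (1062) and TPN1. For TPN1 it had 4162 units, against 7520 and 6966 on arrays 1 and 3. PDX3 was highest on array 2 (6411 units).

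With MCPA-ME 1 of the 6 genes was called, lower, beside 18.6% of all genes in either direction and 8.61% lower. For 1 gene the values did not overlap, beside 18.9%. Without IC20 array 2 the SNZ1 change was -0.24 and still called. In the 6 MCPA-ME arrays alone it was not called, and only 1.16% of all genes were called there. Without IC20 array 1 SNO1 (-0.44) and BUD17 (-0.39) were called lower too, and BUD17 (-0.39) also without control array 3. Against their own controls PDX3 (-0.04) and BUD16 (-0.06) were not called with MCPA-ME, and their values overlapped. Against the mean of the other 5 pesticides, pyrimethanil among them, the change with MCPA-ME was lower for SNZ1 (-0.74 ± 0.11 SE), SNO1 (-1.0 ± 0.17), PDX3 (-0.25 ± 0.07) and BUD16 (-0.31 ± 0.09), with 8.63% of all genes called. After quantile normalization or median centring that number of genes was 2 in place of 4.

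With diuron and carbofuran no change of the 6 genes exceeded 0.38 on the log2 scale. With diuron SNO1 had 4782, 4786 and 4776 units against 3858, 3939 and 3290 in controls (0.38 ± 0.15 SE), and BUD16 had 2084, 2081 and 1844 units against 1746, 1824 and 1719 (0.18 ± 0.09 SE). Neither was called, although neither overlapped, and 0 of the 6 genes were called in limma's fit (2 at an unadjusted p under 0.05), beside 14.4% of all genes. Values did not overlap for 3 of the 6 (2 above their controls, and TPN1 below), beside 40.2%. Diuron cultures of equal replicate number deviated together, and with the replicate number as a block SNO1 and BUD16 were both called higher, at the same sizes of change; SNO1 was also called in the 6 diuron arrays alone. SNZ1 overlapped, with 14130, 14830 and 15000 units with diuron against 14800, 15170 and 15400 in controls.

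With carbofuran SNO1 had 1975, 2239 and 2708 units against 1670, 1863 and 1747 in controls (0.38 ± 0.15 SE), and BUD16 had 1505, 1841 and 1784 against 1334, 1428 and 1421 (0.29 ± 0.09 SE). Both were called higher. PDX3 was called lower, with 5011, 4778 and 4635 units against 5150, 5581 and 5622 (-0.18 ± 0.07 SE), and it differed from its mean change with the other 5 pesticides by -0.42 ± 0.07, a contrast that called 41.4% of all genes. SNZ1 had 13120, 12140 and 13030 units against 11070, 11570 and 11780 and did not pass (0.15 ± 0.10 SE). The 3 of 6 genes called stand beside 42.2% of all genes called with carbofuran, 18.4% higher and 23.7% lower. The 5 of 6 with no overlap (3 above their controls and 2 below) stand beside 49.8%.

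No carbofuran call was kept in the pesticide's own 6 arrays, and with all 18 controls as 1 group SNO1 (-0.39) and BUD16 (-0.02) turned in sign. The SNO1 call was lost without control array 1, 2 or 3 or IC20 array 2 or 3 (0.26 to 0.42), that of BUD16 without IC20 array 2 (0.23), and that of PDX3 without control array 2 or 3 or IC20 array 2 or 3 (-0.18 to -0.15). Without IC20 array 1 BUD17 was called lower (-0.30).

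Untreated cultures of the 6 experiments did not hold the same levels, a comparison the choice of genes did not use. Limma's F test over the 6 control groups called all 6 genes, and 78.9% of all genes. SNO1 spread most, with a mean of 5013 ± 200 units in alachlor controls, the highest, and of 1760 ± 96.9 in carbofuran controls, the lowest (SD, n = 3 each; 2.85-fold, limma adjusted p = 8.22e-08). Its range of 1.51 on the log2 scale was wider than that of 94.8% of genes, whose median range was 0.57. This spread exceeds every change of SNO1 with a pesticide except that with pyrimethanil.

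In ascending order the SNO1 control means were 1760 (carbofuran), 2416 ± 284 (pyrimethanil), 2566 ± 343 (MCPA-ME), 3654 ± 527 (S-metolachlor), 3696 ± 354 (diuron) and 5013 (alachlor). Of the 5 steps 3 passed limma's test: carbofuran to pyrimethanil (adjusted p = 0.019), MCPA-ME to S-metolachlor (adjusted p = 0.0144) and diuron to alachlor (adjusted p = 0.0408). The SNO1 level with pyrimethanil (8931) was above that of all 18 control arrays, whose highest was 5202, and so was every alachlor IC20 value.

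The SNZ1 control means ran in the order 10600 ± 414 (pyrimethanil), 11470 ± 366 (carbofuran), 13310 ± 336 (MCPA-ME), 15000 ± 568 (S-metolachlor), 15120 ± 301 (diuron) and 17200 ± 70.2 units (alachlor). No neighbouring pair passed the test, while the 6 groups together did (limma adjusted p = 1.06e-05). Control levels of PDX3 (4511 to 6307 units, adjusted p = 2.55e-06), BUD16 (1394 to 2043, adjusted p = 2.66e-05), BUD17 (1368 to 2055, adjusted p = 6.14e-05) and TPN1 (5616 to 7799, adjusted p = 0.0138) spread 1.39-fold to 1.5-fold by limma's F test. SNO1, BUD16 and TPN1 were all lowest in the carbofuran controls, and BUD17 was highest there.

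SNO1 and SNZ1 lie side by side and are transcribed away from each other in the RefSeq annotation of assembly R64. In every pesticide the log2 change of SNO1 was above that of SNZ1, by 1.07 with pyrimethanil and by 0.21 to 0.42 with the other 5. SNZ1 was the brighter probe set, at up to 20730 of the 39731.7 units that the table reached, and whether its signal was compressed was not tested. Within groups, deviations of the 2 genes over 36 arrays correlated with Pearson's r = 0.69 and Spearman's rho = 0.25, and r was 0.20 without MCPA-ME IC20 arrays 1 and 2, so the first value rests on those arrays.

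The next gene beyond SNO1, CTF13, a kinetochore gene transcribed toward SNO1, was measured by a probe set of its own. It had 1649, 1943 and 1229 units with pyrimethanil, against 402.9, 666.5 and 623.3 without it, with no overlap (log2 change 1.52 ± 0.37 SE, limma adjusted p = 0.00614; without control array 1 1.29, adjusted p = 0.0536, the highest over 19 alternatives). CTF13 was also lowest in carbofuran controls (217.5 ± 57.7 units) and highest in alachlor controls (875 ± 124), the same 2 groups as SNO1. MTG1, the next gene beyond SNZ1, changed by 0.19 with pyrimethanil and was not called.

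Over the 36 arrays, which share 12 groups, the genes most like SNZ1 by Pearson's r of log2 values were ARG1 (0.93), YMC1 (0.90), PCL5 (0.90), SNO1 (0.89) and GGC1 (0.85). Those most like SNO1 were YMC1 (0.90), SNZ1 (0.89), CTF13 (0.88), MET10 (0.88) and MET5 (0.87). The salvage genes had other nearest genes: YRA2, VPS60 and CAF16 for PDX3 (0.81 to 0.82), NVJ3, YBR096W and YKR070W for BUD16 (0.85 to 0.86), SMM1, RSM7 and TRM44 for BUD17 (0.88 to 0.91) and BAP3, ATR1 and AUS1 for TPN1 (0.87 each). With SNO1 itself, BUD16 had r = 0.79, TPN1 0.69, PDX3 0.35 and BUD17 -0.48.

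**Figure D3:**
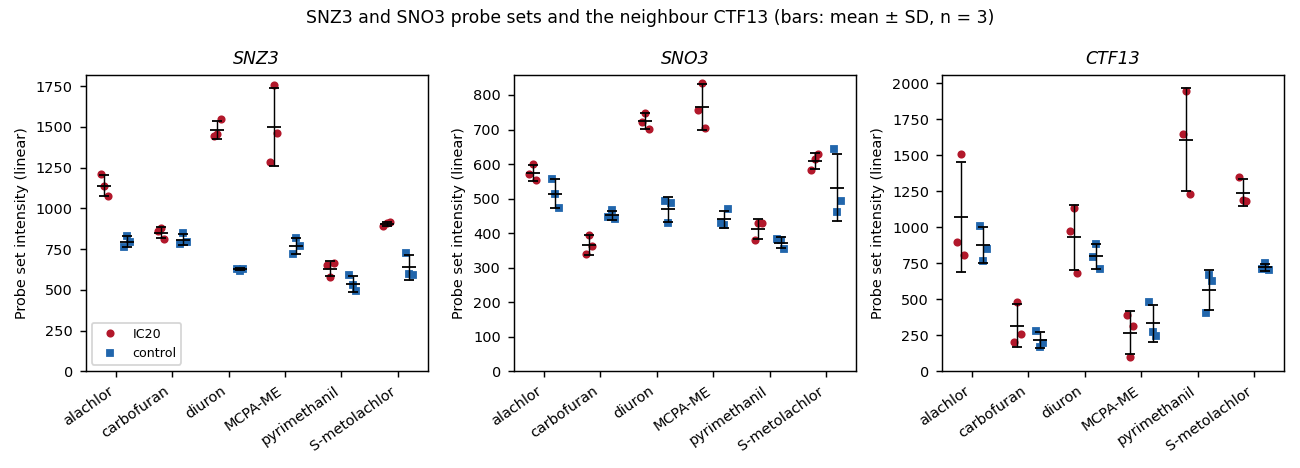
Probe set intensity (linear scale from 0, arbitrary units) of SNZ3, SNO3 and CTF13 by pesticide, with IC20 arrays as red circles left of their control arrays as blue squares; black bars show mean ± SD (n = 3). SNZ3 and SNO3 are highest with diuron and MCPA-ME, and CTF13 with pyrimethanil (1607 ± 359 units).

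The paralogs SNZ3 (YFL059W) and SNO3 (YFL060C) followed another order. Their probe sets are of the class that matches more than 1 gene, so near-identical copies such as SNZ2 and SNO2 cannot be told apart from them. SNZ3 had 1443, 1456 and 1547 units with diuron, against 630.7, 618.8 and 630.1 without it (log2 change 1.24 ± 0.09 SE, limma adjusted p = 5.64e-11), and 1285, 1758 and 1463 with MCPA-ME, against 719.8, 819.3 and 767.3 (0.96 ± 0.09 SE, adjusted p = 8.27e-09). SNO3 had 722.4, 747.7 and 702 units with diuron, against 492, 428.1 and 486.8 without it (0.63 ± 0.09 SE, adjusted p = 1.38e-05), and 757.3, 834.4 and 704 with MCPA-ME, against 428.8, 424.2 and 468.6 (0.79 ± 0.09 SE, adjusted p = 4.29e-07). Treated and control values lay well apart in all 4.

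With pyrimethanil neither paralog passed: SNZ3 had 630.3 ± 47.1 units with it and 537.5 ± 50.2 without it, and SNO3 413 ± 28.7 with it and 372.5 ± 16.4 without it (SD, n = 3 each). SNZ3 did pass with the replicate number as a block (log2 change 0.23), after median centring, with array weights and without the 2 farthest arrays. SNO3 passed with array weights. THI2, a regulator of thiamine genes that was not called in the main fit, also passed with the block (0.30). It passed too after quantile normalization, in the 6 pyrimethanil arrays alone, with array weights and without the 2 farthest arrays. Against the mean change with the other 5 pesticides, SNZ3 was lower with pyrimethanil (-0.43 ± 0.10 SE, limma adjusted p = 0.00488) and higher with diuron (0.78 ± 0.10, adjusted p = 5.15e-06, where 5.27% of all genes were called) and MCPA-ME (0.44 ± 0.10, adjusted p = 0.00387). SNZ3 also rose with alachlor (0.52 ± 0.09 SE) and S-metolachlor (0.51 ± 0.09 SE), and SNO3 fell by 0.31 on the log2 scale with carbofuran, a call lost after quantile normalization or median centring. In the 6 MCPA-ME arrays alone SNZ3 had adjusted p = 0.0536, the highest over its 19 alternatives.

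Thiamine genes were set beside them, because SNZ2 and SNZ3 are known to be expressed with genes of thiamine synthesis. Of 15 measured genes 3 rose and 1 fell with diuron (median log2 change 0.1, beside 0 over all genes), where 14.4% of all genes were called in either direction. With MCPA-ME 1 rose and 1 fell (median 0.11, beside -0.02), where 18.6% of all genes were called. Carbofuran had 4 higher and 1 lower (median 0.19, beside -0.01), where 42.2% of all genes were called. There SNZ3 was not called (0.08) and SNO3 was called lower (-0.31). Alachlor had 1 higher and 1 lower, beside 5.03% of all genes called, and S-metolachlor 1 higher and 2 lower, beside 24.4%. With pyrimethanil 0 rose in limma's fit (1 at an unadjusted p under 0.05) and 1 fell, the regulator PDC2 (-0.34, adjusted p = 0.0224), where 16.1% of all genes were called. With pyrimethanil the PDC2 call was lost without control array 1 or 3 or IC20 array 1 or 3 (-0.34 to -0.31). PDC2 was also called lower with S-metolachlor (-0.44 ± 0.10 SE, limma adjusted p = 0.00282), a call kept under all 19 alternatives. THI2 rose with diuron to 274.3 ± 18.6 units, against 189.5 ± 11.9 in controls (0.53 ± 0.12 SE, limma adjusted p = 0.00257; 0.38 and not called with all 18 controls as 1 group). It rose with carbofuran to 433.4 ± 56.8, against 279.3 ± 33.7 (0.63 ± 0.12 SE, limma adjusted p = 0.000177; 1.04 with all 18 controls as 1 group). PHO3, a thiamine-regulated acid phosphatase gene, fell by 1.81 on the log2 scale with S-metolachlor and was also called lower with alachlor, carbofuran and MCPA-ME, in the last not within its own 6 arrays.

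Genes for enzymes that use pyridoxal phosphate moved in both directions. Of 40 measured, 7 rose and 5 fell with pyrimethanil (median log2 change 0.02, beside -0.04 over all genes), where 6.39% of all genes were called higher and 9.71% lower. With all 18 controls as 1 group 12 rose, where 25.3% of all genes were called in either direction. STR3, which encodes cystathionine beta-lyase, had 613.2 ± 59.9 units with pyrimethanil, against 119.3 ± 18.9 (log2 change 2.37, and 1.34 with all 18 controls as 1 group). Its control mean lies within the range of the probe set of the deleted LEU2. ARG8, the acetylornithine aminotransferase gene, had 17310 ± 609 against 5949 ± 249 (log2 change 1.54, and 0.91 with the pooled controls), and CAR2, the ornithine transaminase gene, had 113.2 ± 60.5 against 516.6 ± 247 (SD, n = 3 each). STR3 was also called higher with alachlor (log2 change 1.22) and S-metolachlor (1.81). CAR2 was called lower with S-metolachlor too (-1.64), and higher with carbofuran (1.78). With MCPA-ME 2 of the 40 rose and 13 fell (median -0.2), beside 18.6% of all genes called and 8.61% lower. In the 6 arrays alone limma called 0 either way (0 higher and 3 lower at an unadjusted p under 0.05), but only 1.16% of all genes were called there. Without control array 1 or 2 or IC20 array 2 the number lower was 7, 8 or 6. Of all genes 15.1%, 15.3% or 26.2% were then called in either direction. Without control array 3 the number lower was 20, beside 21.5% called in either direction. With alachlor 4 rose and 1 fell, beside 5.03% of all genes called in either direction. With carbofuran 8 rose and 1 fell, beside 18.4% called higher and 23.7% lower. With diuron 3 rose and 3 fell, beside 14.4% called, and with S-metolachlor 6 rose and 12 fell, beside 24.4%.

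Of 35 measured amino acid synthesis genes under Gcn4, 16 rose and 2 fell with pyrimethanil (median log2 change 0.22, beside -0.04 over all genes), where 6.39% of all genes were called higher and 9.71% lower. With MCPA-ME 23 fell (median -0.29, beside -0.02), where 8.61% of all genes were called lower; limma called 0 higher, and 0 were higher at an unadjusted p under 0.05. These are also the pesticides with which SNZ1 was called higher and lower. The list was known from earlier results to move this way, and 6 of its genes are on the list of pyridoxal phosphate enzymes too. SNO1 too had its highest change with pyrimethanil (1.89) and its lowest with MCPA-ME (-0.26), but the latter was not called. It was called higher with alachlor, carbofuran and S-metolachlor too, where 1, 3 and 1 of the 35 rose and 0, 4 and 3 fell. ARG3 had 14750 ± 382 units with pyrimethanil, against 5501 ± 535, and LEU4 had 9951 ± 4010 units with MCPA-ME, against 17140 ± 1160 (SD, n = 3 each; log2 change -0.88, and -0.50 without IC20 array 2). With all 18 controls as 1 group 9 rose with pyrimethanil, beside 25.3% of all genes called in either direction, and ARG3 (0.50) was not called. With MCPA-ME 15 fell without IC20 array 2, beside 26.2% of all genes called in either direction. In its own 6 arrays limma called 0 (6 lower at an unadjusted p under 0.05), but only 1.16% of all genes were called there. With the other 4 pesticides 0 to 3 of the 35 rose and 0 to 4 fell, while 5.03% (alachlor) to 42.2% (carbofuran) of all genes were called in either direction.

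The GCN4 probe set was bright, with a mean of 23522 units, above 98.4% of genes, and whether its signal was compressed was not tested. It had 25740 ± 164 units with pyrimethanil and 23960 ± 482 without it (SD, n = 3 each; log2 change 0.10, limma adjusted p = 0.0327, and 0.0648 to 0.119 without control array 1 or 3 or any IC20 array). The pyrimethanil call was also lost in its own 6 arrays, after adding 16, with a floor of 1 and without the dimmest 25% of genes. With MCPA-ME GCN4 had 23840 ± 832 units, against 22880 ± 596, and did not pass. It changed by 0.10 with alachlor, 0.08 with S-metolachlor and 0.05 with diuron, uncalled. With carbofuran it was called higher (0.09), a call kept under 7 of 19 alternatives. The GCN4 change was not called as differing between the 6 pesticides (limma F test, adjusted p = 0.867). Gcn4 is known to be controlled mainly at translation, which these arrays do not measure.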

How the data were processed

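Per the submitters' processing notes, the authors made the deposited linear intensity of each probe set with Affymetrix Expression Console. Not given in the sources used here are its version and how it summarised probes and normalized arrays. Hot phenol was used to extract the RNA, per the labels' protocols. Arrays carry no counts, so their number limits the precision.

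Of 5716 probe sets, 5498 had 1 gene in the supplied annotation and 218 had none. The probe set with the highest mean over 36 arrays stood for each gene. Symbols of 12 genes were updated by gene identifier through RefSeq (assembly R64), and no sequence was available here. Intensities were raised to a floor of 32, taken to log2 and fitted with 1 mean per group (limma 3.58.1, R 4.3.3). The fit was tested on simulated data. Contrasts were IC20 minus own control, F tests over the 6 controls and over the 6 changes, and 1 pesticide against the other 5, two-sided, adjusted over 5449 genes.

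The members and lists were chosen with earlier results of these data known. Named besides the 6 genes are their paralogs, chromosomal neighbours and regulators, up to 3 called members per list and pesticide whose groups did not overlap (by size of change), and the 3 or 5 genes of most like pattern with a mean above 100. The strain check used mating-type and deleted genes. Alternatives were quantile normalization, median centring, adding 16, floors of 1 and 100, a filter dropping the 25% of genes of lowest mean, testing every annotated probe set, a pesticide's own 6 arrays, 18 pooled controls, a replicate block, trend and robust options, array weights, and leaving out each array. Leaving out the 2 arrays farthest from their groups was chosen after seeing the data.

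Equal replicate numbers were checked as pairs by correlating deviations from group means across genes. Every pair was above 0.1 for diuron (0.352 to 0.402) and pyrimethanil (0.173 to 0.38), and not for the other 4 pesticides (lowest -0.711), so the block is an alternative.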

Additional observations from a re-analysis of the deposited data

Results flagged for a closer look

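Among the paralogs, neighbours and regulators measured beside the 6 genes, the change differed between the 6 pesticides by limma's F test, which called 43.3% of all genes. It differed for the SNZ3 probe set (adjusted p = 3.37e-07), with log2 changes between 0.08 and 1.24, and for the SNO3 probe set (adjusted p = 3.74e-06), between -0.31 and 0.79. It also differed for CTF13 (limma adjusted p = 0.0493, log2 changes of -0.47 to 1.52) and for the regulators THI2 (adjusted p = 0.0266, 0.09 to 0.63) and PDC2 (adjusted p = 0.0464, -0.44 to 0.02). The causes were not tested.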

How the results depend on the processing

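Of the 684 changes of the 6 genes recomputed under alternatives, 621 kept their direction and side of the threshold, or were uncalled both times. Another 35 lost and 26 gained a call and 2 reversed, both with all 18 controls as 1 group: SNO1 (-0.39) and BUD16 (-0.02) with carbofuran. ARO1 with carbofuran reversed there too (-0.07). The number called higher with pyrimethanil was 4, and 5 with array weights and without the 2 arrays farthest from their groups. The number called higher with alachlor was 3 (SNZ1 added) with all 18 controls as 1 group, with array weights and without the 2 farthest arrays, 1 after quantile normalization and after median centring, and 0 to 2 without 1 array. With carbofuran the number higher was 3 without the 2 farthest arrays, 1 with a floor of 100, 0 in its own 6 arrays and 0 with 18 pooled controls, and 0 to 2 without 1 array; the number lower was 0 after either rescaling, in its own 6 arrays and with pooled controls, 2 with array weights, 2 without the 2 farthest arrays, and 0 to 2 without 1 array. With diuron the number higher was 1 in its own 6 arrays, 2 with the replicate block, 2 with array weights and 1 without the 2 farthest arrays. With MCPA-ME the number lower was 0 in its own 6 arrays, 2 with pooled controls, 2 with array weights, and 1 to 3 without 1 array. With S-metolachlor the number higher was 4 (SNZ1 added) in its own 6 arrays, with array weights and without the 2 farthest arrays, and 1 to 2 without 1 array; with array weights, 1 gene was lower, as with pyrimethanil (1). The change with MCPA-ME against the other 5 was called for 2 genes after either rescaling. Calls over all genes moved too. In the order alachlor, carbofuran, diuron, MCPA-ME, pyrimethanil and S-metolachlor, array weights called 17.9%, 56.4%, 36.9%, 36%, 38% and 50.1% of all genes. Without the 2 farthest arrays these shares were 8.31%, 55.8%, 20.7%, 30.2%, 23.8% and 34.8%. Pooled controls called 18.3% for alachlor, 43.8% for carbofuran and 22% for MCPA-ME. In a pesticide's own 6 arrays the share was 24.5% for carbofuran, 18.4% for diuron, 1.16% for MCPA-ME and 37.3% for S-metolachlor. With diuron the replicate block called 17.3% of all genes. The replicate block changed no other call of the 6 genes, and it cannot be fitted to the comparison of controls. The causes were not tested. All 6 genes differed among controls under each alternative run.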
